A study of Drosophila melanogaster with 6 samples.

Results

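Odorant-binding protein (Obp) genes were followed in heads of female Drosophila melanogaster. The members were chosen by name: every probe set annotated with exactly 1 gene symbol that begins with Obp and a digit, with the probe set of the highest mean kept for each gene. This gave 47 genes of the 11982 genes that the annotation names, from 50 probe sets, since 3 genes had 2 probe sets each. A RefSeq gene table holds 51 symbols of this form, and the other 4 (Obp83a, Obp50b, Obp50c and Obp57d) were not analysed here. Of the members, 26 lie on chromosome arm 2R, 11 on 3R, 6 on X, 2 on 2L and 2 on 3L.

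Obp genes encode small secreted proteins, most of them held together by disulfide bridges, that bind small hydrophobic molecules. In insects they are best known from the fluid of olfactory and taste hairs, where support cells around the sensory neurons release them. Other members of the family are made in fat body, haemolymph, glia or the male reproductive tract, and many of the genes lie in tandem clusters.

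The study compared 2 strains at 2 times of the day on 6 Affymetrix arrays. Flies were kept at 25 °C and heads were taken at ZT3 and ZT15, where ZT is the hour counted from lights-on. The control strain had 2 arrays at each time, and the strain named Tim-Fbl in the RNAi field had 1 array at each time. The labels do not give the construct, the driver, the genotype of the controls, the age of the flies or the number of heads pooled.

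Signals are RMA values on a log2 scale, so a difference of 1 is a 2-fold change. They are given in the order control ZT3 (replicates 1 and 2), control ZT15 (replicates 1 and 2), Tim-Fbl ZT3, Tim-Fbl ZT15. Signals of different probe sets are not comparable as amounts of RNA. A group mean of 5 was used as a working lower limit, under which differences are compressed, and signals near the top of the scale (the highest was 14.601) may be compressed too. The probe set of fbl, the gene in the strain's name, read 9.28, 9.26, 9.27, 9.11, 7.47 and 7.49. It fell by 1.75 ± 0.081 in Tim-Fbl (SE; limma adjusted p = 5.57e-05). Control replicates correlated at r = 0.996 at each time. The median of 12 spike-in probe sets was 6.76 on the Tim-Fbl ZT15 array, against 5.17 to 5.89 on the other arrays. The median of 3 probe sets of 18S rRNA was 12.5, 12.3, 12.7 and 11.4 on the control arrays and 11.5 and 11.8 on the Tim-Fbl arrays, so control ZT15 replicate 2 lay with the Tim-Fbl arrays. The part of either in the results was not tested. In whole heads, fewer cells of a type and less RNA per cell cannot be told apart.

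Of the 47 members, 28 (59.6%) reached a mean of 5 in at least 1 group and 19 did not, compared with 58.1% of all probe sets that did. Since probe sets differ in how they respond, these counts say which differences could be measured, not how much RNA was present. Of 6 measured genes known from olfactory hairs of the antenna, 2 (Obp28a and Obp69a) reached the limit. The other 4 were Obp83b, an antennal protein of olfactory hairs, Obp19a, Obp59a, which is needed for humidity sensing, and Obp84a. Their signals lay between 3.30 and 4.62 on every array. The gene lush, an odorant-binding protein gene of olfactory hairs outside the naming rule, read 4.90 to 6.41 and reached the limit. In the other lists, 9 of the 11 measured genes of the taste organ list and all 5 genes of the list for fat body, haemolymph or glia reached the limit. Of the 6 genes known from seminal fluid, 3 did (Obp56e, Obp56f and Obp8a), and of 10 measured Plus-C genes, the subfamily with extra conserved cysteines, 3 did (Obp49a, Obp50d and Obp58c).

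**Figure D1:**
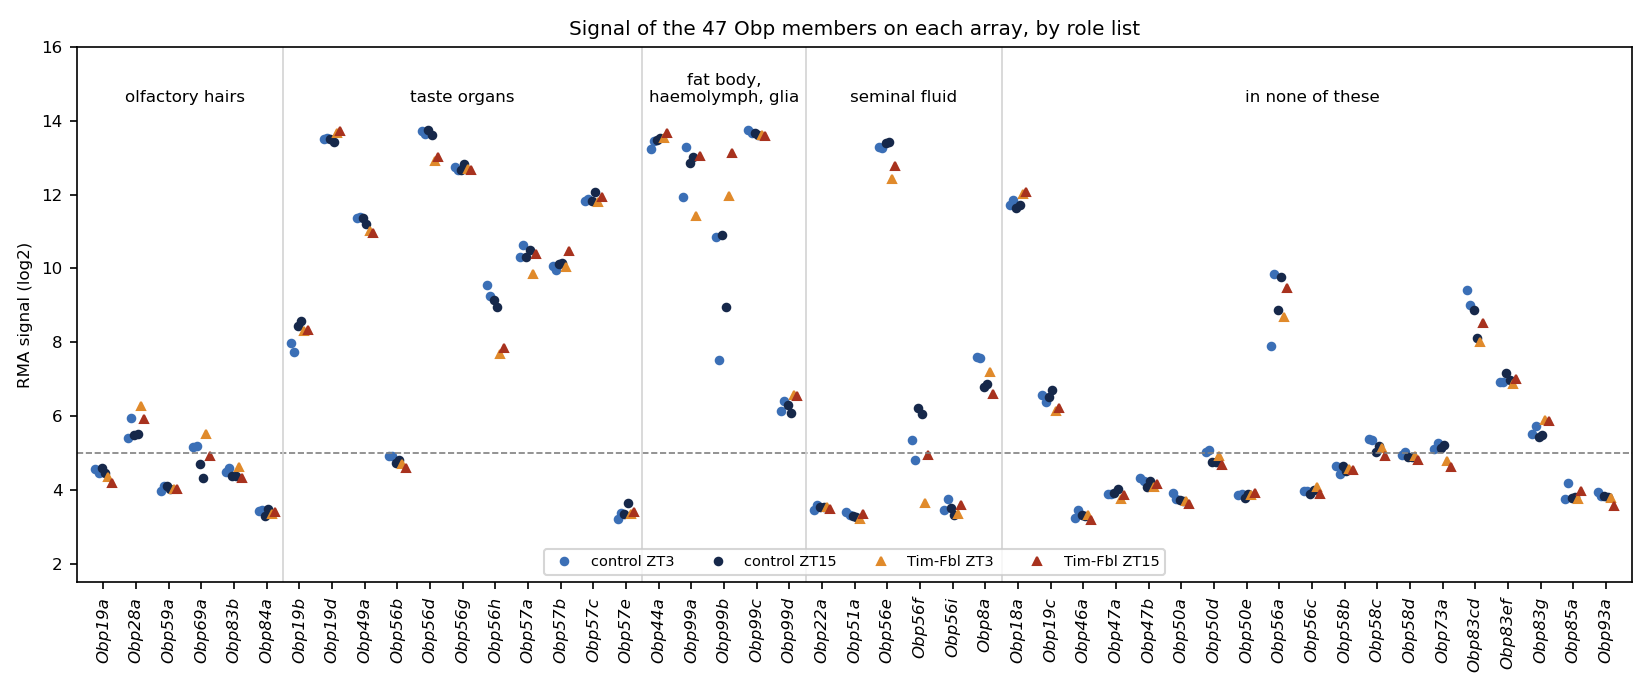
RMA signal (log2) of the 47 members on each of the 6 arrays, grouped by role list, with the working limit of 5 as a dashed line. Circles are control arrays and triangles Tim-Fbl arrays; 19 members have every group mean under the line.

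In the comparison of strains, 6 members passed the test and all 6 were lower in Tim-Fbl: Obp56d, Obp56e, Obp56f, Obp56h, Obp49a and Obp73a. These are 12.8% of the members, while 3.35% of all probe sets were lower and 8.79% were called in either direction (limma over both times, adjusted p under 0.05). No member was called higher, compared with 5.44% of all probe sets, although Obp18a, Obp28a, Obp69a, Obp83g or Obp99b passed as higher under some of the alternative settings. The split of all probe sets into lower and higher calls depended on scaling: with array medians subtracted it was 2.54% and 6.60%, with quantile normalization 3.16% and 3.67%, and with cyclic loess 3.10% and 4.10%. The other 41 members did not pass, and 18 members had an unadjusted p under 0.05 (7 higher, 11 lower), compared with 29.1% of all probe sets in either direction. The median strain difference was -0.05 over the members and -0.03 over all probe sets. With only those at a group mean of at least 5, the medians were -0.06 and 0.06. Both Tim-Fbl arrays lay below all 4 control arrays for 10 members (21.3%, against 19.9% of all probe sets) and above them for 6 members (12.8%, against 16.5%).

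**Figure D2:**
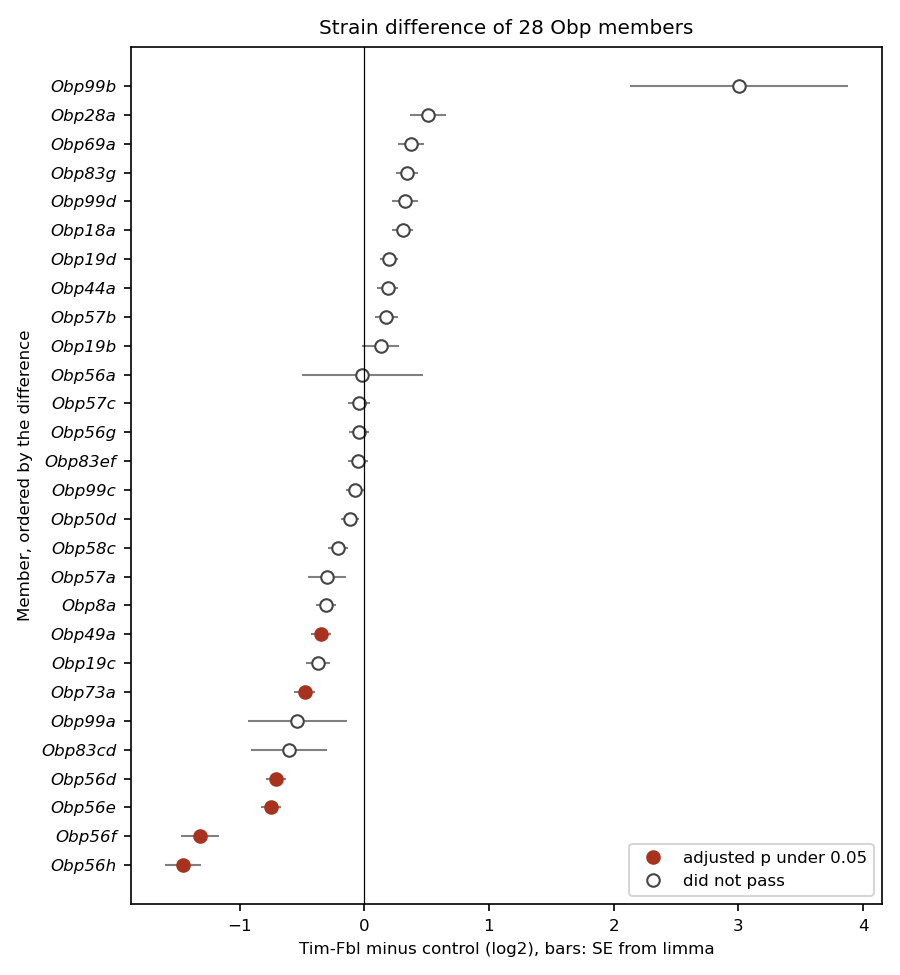
Strain difference (Tim-Fbl minus control, log2) of the 28 members with a group mean of at least 5, ordered by size, with bars for the standard error from limma. Filled points passed the test; the lowest is Obp56h at -1.45, and Obp99b stands apart at 3.00 with a wide error and did not pass.

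The taste organ list held 3 of the 6 genes that fell (Obp56h, Obp56d and Obp49a), which is 27.3% of its 11 measured members, against 3.35% of all probe sets that were lower. Its median difference was -0.04. Obp56h, which has been tied to mating behaviour and cuticular hydrocarbons in male flies, had the largest fall. It read 9.56, 9.25, 9.14, 8.95, 7.69 and 7.86. Every Tim-Fbl array was below every control array. The fall was 1.45 ± 0.145 on the log2 scale, or 2.73-fold (adjusted p = 0.00237), with differences of -1.72 at ZT3 and -1.18 at ZT15.

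Obp56d, known from taste bristles and antennae, read 13.72, 13.64, 13.76, 13.63, 12.92 and 13.03. The groups did not overlap, and the control arrays lay within a narrow band near the top of the scale. It fell by 0.71 ± 0.079 (1.64-fold; adjusted p = 0.00352). Obp49a, a Plus-C protein needed in taste hairs of the labellum for bitter compounds to suppress the sweet response, read 11.36, 11.39, 11.37, 11.19, 11.004 and 10.96. Its groups did not overlap either, but the difference was small. It fell by 0.35 ± 0.081 (1.27-fold; adjusted p = 0.0422). With array medians subtracted the adjusted p was 0.0519, and the call was also lost with 4 group means (0.0543) and without any 1 array other than control ZT15 replicate 2.

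The remaining taste organ genes did not pass. Obp56g, from the same cluster, read 12.75, 12.67, 12.67, 12.82, 12.70 and 12.66, and the strains overlapped (-0.04; adjusted p = 0.744). Obp57c read 11.83, 11.88, 11.84, 12.06, 11.79 and 11.92, again with overlap. Obp19d, whose probe set may also measure other transcripts, read 13.51, 13.53, 13.51, 13.44, 13.67 and 13.72. Both Tim-Fbl arrays were above all control arrays by a small margin, a difference of 0.20 ± 0.073 that did not pass (adjusted p = 0.128).

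The seminal fluid list held another 2 of the genes that fell, Obp56e and Obp56f. This is 33.3% of its 6 measured members, against 3.35% of all probe sets that were lower. These are female heads, and the 10 measured male accessory gland markers were all under the limit of 5, with a summed signal of 6.87 to 6.96 on control and 6.85 to 6.86 on Tim-Fbl arrays (log2). Obp56e read 13.28, 13.27, 13.40, 13.41, 12.42 and 12.77. The strains did not overlap. It fell by 0.75 ± 0.080 (1.68-fold; adjusted p = 0.00302).

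Obp56f, which lies next to Obp56e, was near the working limit and read 5.35, 4.82, 6.22, 6.04, 3.64 and 4.95. Within each time Tim-Fbl was below both control arrays, but the Tim-Fbl ZT15 array was above control ZT3 replicate 2. The fall was 1.32 ± 0.151 (2.49-fold; adjusted p = 0.00386), and since both Tim-Fbl signals were under the limit of 5 its size may be understated.

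Obp73a, which is in none of the role lists, read 5.11, 5.28, 5.12, 5.22, 4.79 and 4.62. The strains did not overlap, although all signals were near the limit. It fell by 0.48 ± 0.087 (1.39-fold; adjusted p = 0.0202). The call was lost without control ZT15 replicate 1 (adjusted p = 0.0522), without the Tim-Fbl ZT3 array (0.0954) and without the Tim-Fbl ZT15 array (0.13).

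Of the 6 genes that fell, 4 belong to the cluster of 9 Obp genes that carry the number 56 on chromosome arm 2R. These 4 are 44.4% of that cluster, against 3.35% of all probe sets that were lower, and the cluster's median strain difference was -0.20. Obp56d and Obp56h are counted in the taste organ list too, and Obp56e and Obp56f in the seminal fluid list. Along the chromosome, Obp56d, Obp56e and Obp56f are adjacent. They are followed by CG8517 and the odorant receptor gene Or56a, both under the limit of 5, then by Obp56g, which did not pass, and by Obp56h. Of the 3 measured genes between the Obp genes of the cluster, Toll-7, a receptor of the Toll family, was also lower, by 0.45 ± 0.091 (adjusted p = 0.0282). Toll-7 was near the limit, at 5.33 to 5.48 on control arrays and 5.03 and 4.83 on Tim-Fbl arrays. Obp56a, at one end, had a difference of -0.01 (adjusted p = 0.988), and Obp56b, Obp56c and Obp56i were under the limit in every group.

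**Figure D3:**
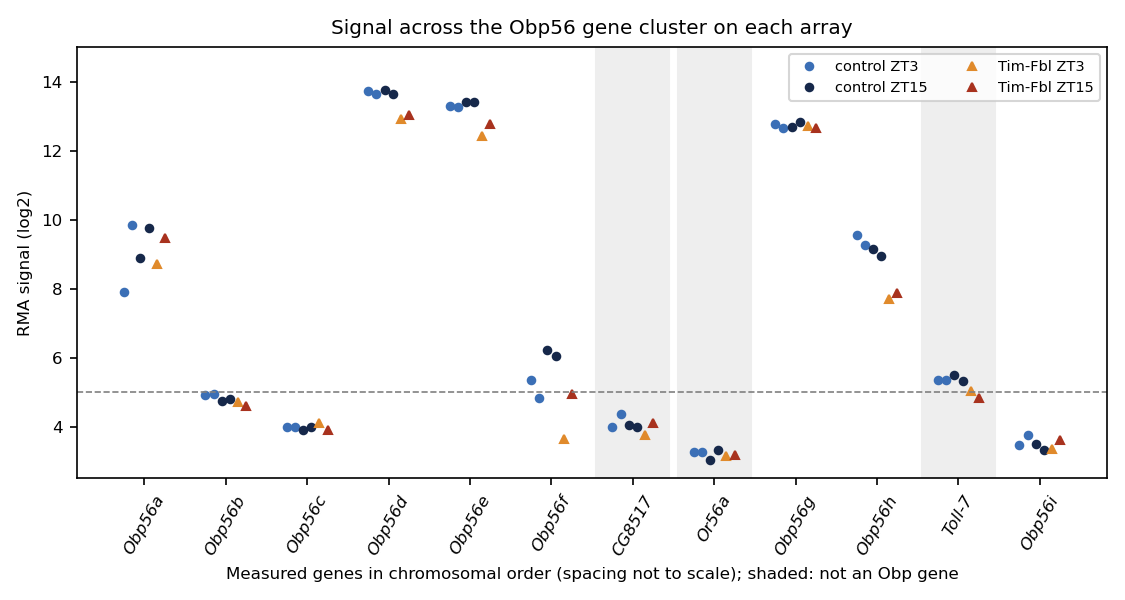
RMA signal (log2) of the measured genes of the Obp56 cluster on each of the 6 arrays, in their order along chromosome arm 2R. The dashed line is the working limit of 5, and shaded genes are not Obp genes. Both Tim-Fbl arrays lie below all 4 control arrays for Obp56d, Obp56e, Obp56h and Toll-7, while the strains overlap for Obp56g.

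No Obp gene passed the strain test in the clusters that carry the numbers 57 (4 members), 83 (4), 99 (4) or 19 (4). Of the other measured genes within these stretches, 1 of 8 passed in the 57 cluster, 2 of 6 in the 83 cluster and 0 of 7 in the 99 cluster, and the 19 cluster held none. For comparison, 8.79% of all probe sets were called in either direction. CG30148 fell by 0.46 in the 57 cluster (adjusted p = 0.0356). In the 83 cluster CtsL3, a cathepsin L-like protease gene, fell by 2.17 (adjusted p = 0.00418) and Gasp, a chitin-binding protein gene, rose by 0.73 (adjusted p = 0.0133).

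The list for fat body, haemolymph or glia had no call, and its median difference was 0.19. Obp99b, a fat body gene also known as turn on sex-specificity, read 10.84, 7.51, 10.89, 8.94, 11.97 and 13.14. Both Tim-Fbl arrays were above all control arrays, but the controls themselves spanned 3.38. The difference of 3.00 ± 0.875 was the largest of any member and did not pass (adjusted p = 0.0756). Without control ZT3 replicate 1 it was 3.75 and passed (adjusted p = 0.0216), and without other single arrays it went down to 2.32.

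Obp99a read 11.92, 13.28, 12.86, 13.03, 11.42 and 13.06. The lowest values were the Tim-Fbl ZT3 array and control ZT3 replicate 1, and the strains overlapped (-0.54 ± 0.395; adjusted p = 0.398). Obp99c read 13.75, 13.68, 13.66, 13.60, 13.62 and 13.58, almost the same on every array. Obp44a, a glial gene, read 13.23, 13.45, 13.49, 13.54, 13.55 and 13.68. Both Tim-Fbl arrays were above all controls by a small margin, and the difference of 0.19 ± 0.086 did not pass (adjusted p = 0.194). Obp99d ranged from 6.09 to 6.58, with a difference of 0.33 (adjusted p = 0.0959).

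**Figure D4:**
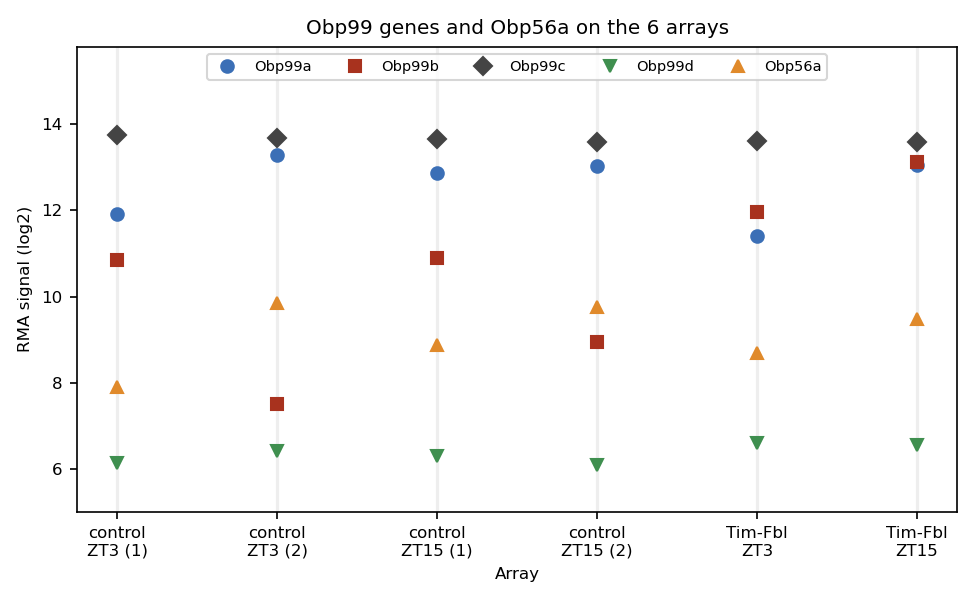
RMA signal (log2) of Obp99a, Obp99b, Obp99c, Obp99d and Obp56a on each of the 6 arrays. Obp99b ranges from 7.51 to 10.89 over the control arrays and reads 11.97 and 13.14 in Tim-Fbl, while Obp99c stays between 13.58 and 13.75.

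Fat body, glial and haemocyte markers were read beside these genes. Of 7 measured head fat body markers, 1 passed, Hex-C, which was lower by 0.44 (adjusted p = 0.0258). The summed signal was 16.46 to 16.61 on control and 16.42 to 16.52 on Tim-Fbl arrays. Yp1, Yp2 and Yp3, which had the highest part of this sum, read near the top of the scale, where differences may be compressed. Of 6 glial markers, alrm rose by 0.34 (adjusted p = 0.0295). For 4 of the 6 (repo, alrm, moody and wrapper) both Tim-Fbl arrays were above all controls, and the median difference was 0.25. The mean glial signal was 10.48 to 10.68 on control arrays and 10.73 and 10.72 on Tim-Fbl arrays, while the summed signal, of which Gs2 (-0.27) had the highest part, was 13.75 to 13.94 and 13.78. Of 4 haemocyte markers, Hml rose by 0.71 (adjusted p = 0.0191) and eater by 0.65 (adjusted p = 0.0467), and the summed signal was 12.12 to 12.59 on control and 12.74 to 12.88 on Tim-Fbl arrays. Of 6 measured gut markers, 5 were below all controls on both Tim-Fbl arrays and 2 passed, Mal-A1 (-0.41; adjusted p = 0.0489) and epsilonTry (-0.31; adjusted p = 0.0454), with summed signals of 7.88 to 7.99 on control and 7.62 to 7.66 on Tim-Fbl arrays. Of 7 genes matched to the ovary and eggshell list, 4 were below all controls and Cp15 passed (-0.38, adjusted p = 0.0316). The 7 include Nos (0.20), a different gene from the nos that was listed, so no summed signal is given. Both Tim-Fbl arrays also lay above all controls for 4 of 4 haemocyte markers and below them for 3 of 7 head fat body markers. Over all probe sets, both lay above all controls for 16.5% and below them for 19.9%, and 8.79% were called in either direction. The part of these markers in the results, the falls of the 6 Obp genes included, was not tested.

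The 2 olfactory hair genes above the limit did not pass. Obp28a, an abundant antennal protein, ranged from 5.40 to 5.94 in controls and read 6.27 and 5.92 in Tim-Fbl (0.51; adjusted p = 0.0676). Obp69a, reported to respond to exposure to a male pheromone, ranged from 4.34 to 5.19 in controls and read 5.51 and 4.92 (0.37; adjusted p = 0.072). None of 12 antennal neuron markers passed, with 4 above the limit. Both Tim-Fbl arrays lay below all controls for 3 of the 12 (25%, against 19.9% of all probe sets) and above them for 0. These were Ir8a, Ir84a and Or47b. The largest difference was that of Ir8a (-0.35, adjusted p = 0.0507). At an unadjusted p under 0.05 there were 4 of the 12, all lower, compared with 29.1% of all probe sets in either direction. The summed signal of the 12 was 8.20 to 8.36 on control and 8.15 to 8.18 on Tim-Fbl arrays. Orco, the shared odorant co-receptor, read 5.05 to 5.25 and 5.12 to 5.16. All 6 taste neuron markers were under the limit in every group (summed signal 6.85 to 6.98 and 6.81 to 6.83). Of 6 support cell markers, pros and Snmp2 were higher by 0.44 and 0.38 and nompA was lower by 0.58 (adjusted p = 0.0245 for nompA). Over all probe sets, 8.79% were called in either direction. The part of these markers in the result was not tested.

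The remaining members with a group mean of at least 5 did not pass the strain test. Obp18a ranged from 11.64 to 12.07 and Obp83g from 5.42 to 5.89, with both Tim-Fbl arrays above all controls. Obp19c ranged from 6.14 to 6.71, with both Tim-Fbl arrays below all controls. The strains overlapped for Obp57b (9.96 to 10.47), Obp83ef (6.86 to 7.15), Obp58c (4.91 to 5.37) and Obp50d (4.68 to 5.09). The 19 members under the limit ranged from 3.18 to 5.03, with strain differences of -0.25 to 0.03 and no call.

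In the comparison of times within the controls, 1 member passed and it was lower at ZT15. This is 2.13% of the members, against 0.703% of all probe sets called in either direction, of which 0.389% were lower and 0.314% higher (0.352% and 0.405% after median subtraction, 0.357% and 0.197% after cyclic loess). The gene was Obp8a, known from seminal fluid, which read 7.61, 7.58, 6.79, 6.88, 7.21 and 6.61. Both control ZT3 arrays were above both ZT15 arrays. The fall was 0.76 ± 0.090 (1.69-fold; adjusted p = 0.0254). The call rested on both ZT3 arrays: the adjusted p was 0.07075 without replicate 1 and 0.122 without replicate 2. In Tim-Fbl the ZT15 array was lower than the ZT3 array by a similar amount (-0.59, 1 array each, no test).

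The remaining 46 members did not pass, and 8 members had an unadjusted p under 0.05, compared with 17.3% of all probe sets. The median time difference was -0.05 over the members and -0.01 over all probe sets. Both ZT15 control arrays were below both ZT3 arrays for 16 members (34%, against 25.6% of all probe sets) and above them for 7 (14.9%, against 26.5%).

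The largest time differences without a call were those of Obp56f, Obp99b and Obp83cd. Obp56f was higher at ZT15 by 1.05 in controls (adjusted p = 0.0652) and by 1.31 in Tim-Fbl, with both control ZT15 arrays above both ZT3 arrays. In controls it passed without control ZT3 replicate 1 (1.32; adjusted p = 0.0341), without either ZT15 replicate and in the additive model (1.14; adjusted p = 0.0205). For Obp99b the controls overlapped between times (0.74 ± 1.06; adjusted p = 0.742). Obp83cd, a protein with tandem binding domains, read 9.42, 9.01, 8.88, 8.11, 8.001 and 8.51. In controls it was lower at ZT15 (-0.72 ± 0.252; adjusted p = 0.237; without control ZT15 replicate 1, -1.10 and 0.0144), while the Tim-Fbl arrays differed by 0.51 the other way.

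The test of whether the time difference depended on strain called no member, as against 0.0373% of all probe sets (limma; lowest adjusted p among members 0.842). At an unadjusted p under 0.05 there were 3 members, Obp19b, Obp83cd and Obp57a, compared with 5.4% of all probe sets. Obp19b, of the taste organ list, read 7.98, 7.74, 8.45, 8.57, 8.31 and 8.33. It was higher at ZT15 in controls by 0.65 (adjusted p = 0.0717; 0.0394 with robust variances) and differed by 0.02 in Tim-Fbl, and the difference between the strains, -0.63 ± 0.194, did not pass (adjusted p = 0.842). Obp57a, also of that list, read 10.31, 10.62, 10.31, 10.49, 9.86 and 10.40. Its Tim-Fbl ZT3 array was the lowest, and the interaction of 0.61 ± 0.228 did not pass. For Obp99a the time differences were 0.34 in controls and 1.64 in Tim-Fbl, an interaction of 1.30 ± 0.661 (adjusted p = 0.842).

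Over the 28 members above the limit, the time differences in controls and in Tim-Fbl, which rest on different arrays, had the same sign for 22 members (12 higher, 10 lower at ZT15). This is 78.6%, compared with 58.9% of the 10904 probe sets with a group mean of at least 5. Across these genes, which are not independent replicates and share arrays, r was 0.68 and rho 0.63 (0.31 and 0.29 over all such probe sets). The strain differences at ZT3 and at ZT15, also from different arrays, had the same sign for 23 members (82.1%, against 74.2%), with r = 0.88 and rho = 0.75 (0.69 and 0.64).

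**Figure D5:**
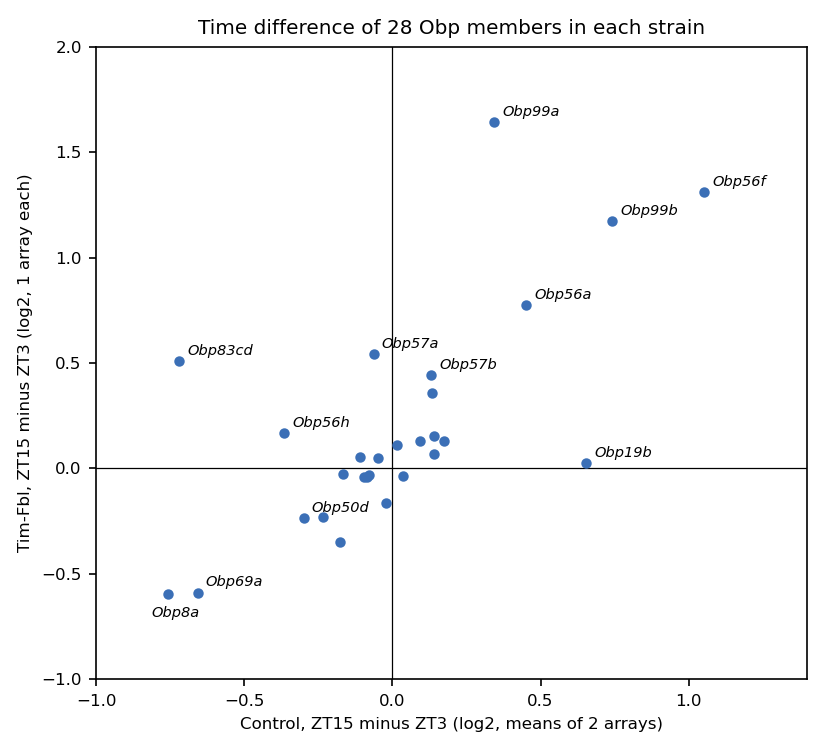
Time difference (ZT15 minus ZT3, log2) of 28 members in controls (horizontal axis, means of 2 arrays) and in Tim-Fbl (vertical axis, 1 array each). Obp8a and Obp69a lie low on both axes, Obp56f and Obp99b high on both, and Obp83cd lies at -0.72 in controls and 0.51 in Tim-Fbl.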

How the data were processed

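Heads were profiled on 6 arrays, with biotin-labelled cRNA from 3 µg of total RNA, per the labels' protocols. The deposited values are log2 signals made by the authors with RMA, per the submitters' processing notes, which name no version. The log2 scale was read from the range of the values. Since RMA gives the probe intensities of every array the same distribution, a change common to all transcripts is invisible here. The resulting probe set values still differ slightly in distribution, with array medians from 5.46 (Tim-Fbl ZT3) to 5.51 (control ZT3 replicate 2). Groups came from the labels. Replicates are not said to be separate cultures, so the p-values reflect spread among these arrays that may be technical only, and the number of arrays limits the precision.

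Of 18952 probe sets, 183 control probe sets were left out and 18769 tested with limma 3.58.1 in R 4.3.3 (lmFit and eBayes, Benjamini-Hochberg over all, threshold 0.05). Strain was tested in an additive model of strain and time (3 residual degrees of freedom). Time in controls and the interaction were tested with 4 group means (2 residual degrees of freedom). Tim-Fbl arrays are assumed to vary like control arrays. The procedure was tested on simulated data.

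Members given array by array passed a test, had one of the 8 highest means, or had one of the 4 largest changes in a test, at a group mean of at least 5 for tests and changes; the rest are given by range and count, and any other gene named with values (such as Obp28a, CtsL3 and CG30148) was chosen after its values were seen or as a list example. Members and lists were chosen with earlier results of these data known. All 47 members matched the RefSeq gene table, used for names and gene order only. Alternatives varied the filter, scaling, variance model, probe set rule, model and arrays used. Figures were drawn with matplotlib 3.10.9 in Python 3.11.15.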

Additional observations from a re-analysis of the deposited data

How the results depend on the processing

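Strain calls among members numbered 6, and 4 to 9 over 15 alternatives (4 to 8 when 1 array was left out). Obp56d, Obp56e and Obp56h passed in all 15, and Obp56f in the 14 that tested it. Under some alternatives Obp19c, Obp8a, Obp83g, Obp18a, Obp69a, Obp28a or Obp99b also passed. Time calls moved more, from 1 to 2 with robust variances, 3 with the additive model and 5 with the replicate block (control arrays only, 1 residual degree of freedom), and from 0 to 4 when 1 array was left out; the cause was not tested. Same-numbered control arrays deviated together with r = 0.0566, so the numbers were not taken to pair the arrays. The block calls were Obp8a, Obp56f (1.05; adjusted p = 0.00475), Obp83cd (-0.72; 0.0242), Obp19b (0.65; 0.0355) and Obp69a (-0.66; 0.038). Interaction calls were 0 in limma and under all 12 alternatives, with 3 members at an unadjusted p under 0.05. Over all probe sets, strain calls numbered 1650 (395 to 1936), time calls 132 (27 to 340) and interaction calls 7 (0 to 57). No member reversed a called direction. With 1 Tim-Fbl array at each time, differences in that strain have no replicate check.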

Other observations

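Among the 28 members with a group mean of at least 5, 5 (17.9%) had a range of over 1 log2 unit across the 4 control arrays, compared with 3% of the 10904 such probe sets; the limit of 1 was chosen after the values were seen. They were Obp99b (3.38), Obp56a (1.94), Obp56f (1.41), Obp99a (1.36) and Obp83cd (1.31). The range covers both times, so it holds the time difference as well as the spread between replicates. For Obp56f and Obp83cd the time differences in controls were 1.05 and -0.72. Median ranges were closer, 0.322 and 0.289. Obp56a read 7.90, 9.84, 8.88, 9.76, 8.70 and 9.47, in the array order of the report, and both Tim-Fbl arrays lay inside the control range.

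A list of 38 other secreted or membrane genes, drawn up as chemosensory, also holds Npc2a to Npc2h, EbpII, EbpIII and Jhedup. Of its 28 measured genes, 12 reached a group mean of 5. In the strain comparison 3 of the 28 were higher and 0 lower, compared with 5.44% and 3.35% of all probe sets. Phk-3, of the chemosensory protein family, read 8.86, 9.03, 8.53, 8.51, 10.66 and 11.67, a rise of 2.43 ± 0.275 (limma adjusted p = 0.00373). CheA87a read 5.53, 5.49, 5.62, 5.60, 7.79 and 8.35, a rise of 2.51 ± 0.111 (adjusted p = 4.56e-05). In both, every Tim-Fbl array was above every control array. The third was Snmp2 (0.38; adjusted p = 0.0422). In controls, lush, an odorant-binding protein gene outside the naming rule, read 6.11 and 6.24 at ZT3 and 5.24 and 4.90 at ZT15. This fall of 1.11 passed the test of time in controls (limma adjusted p = 0.0254). The Tim-Fbl arrays read 6.18 and 6.41, and the difference between the strains in this change, 1.34, did not pass (adjusted p = 0.377).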
